A study of Mus musculus with 12 samples.

Results

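Sialic acids are acidic sugars that cap the glycans of the cell surface, and 10 genes that make, attach or read them were followed here in mouse primary macrophages. The 10 were 1 sialic acid activating enzyme (Cmas), 1 hydroxylase (Cmah), 5 sialyltransferases (St3gal4, St3gal6, St6gal1, St8sia4 and St8sia6) and 3 Siglecs (Siglec1, Siglece and Cd22), out of 22180 genes tested. Each was read by 1 probe set, so the rule of taking the probe set with the highest mean per gene had no choice to make. The genes were chosen by role and by their differences between the groups in earlier results of these data. The differences and adjusted p-values of the 10 genes are therefore a description, and no count over them is read as a result about the group.

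RNA was measured on 12 single-channel arrays, 3 in each of 4 groups. The groups were WT macrophages and CD36 KO macrophages cultured alone, and WT and CD36 KO tumour-associated macrophages (TAMs), which are macrophages cultured for 72 h with 5TGM1, a mouse multiple myeloma cell line. The medium was RPMI 1640 with serum and antibiotics, and no time in culture is recorded for the cells cultured alone. CD36 is a scavenger receptor for fatty acids and oxidised lipoproteins, and the comparisons ask how co-culture and the loss of CD36 go with expression of each gene. The age and sex of the animals, the tissue the macrophages came from, the type of knockout allele, whether 5TGM1 cells were removed before RNA extraction and whether replicates are separate animals are not stated in the labels. What a p-value measures is thus the spread between these arrays, which may be technical.

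Levels are the log2 of the authors' RMA intensity, and levels of different genes were not set against each other, since each probe set has its own response. A difference is on the log2 scale, ± the standard error of the limma fit over the 12 arrays (n = 3 per group). A gene is said to have risen or fallen where the limma p was under 0.05 after Benjamini-Hochberg adjustment across 22180 genes. An exact permutation test of 3 against 3 arrays cannot go below a two-sided p of 0.1, which it gave for every member and comparison whose groups did not overlap.

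The macrophage genes Adgre1 and Cd68 read 12.16 to 12.83 and 12.05 to 13.07, and all 8 macrophage markers lay above the 5.34 that was the median over all genes. Cd36 read 8.45 to 9.66 on the KO arrays and 12.10 to 12.53 on the WT arrays. The KO arrays also differed from the WT arrays in the X-inactivation RNA Xist, 3.91 to 4.35 against 11.08 to 11.32. All 4 sex-linked genes measured were called between genotypes, 3 higher and 1 lower in KO. This held in macrophages (11.3% of all genes called) and in TAMs (12.2%). Genotype and the pattern of sex-linked genes thus cannot be told apart in any KO against WT comparison below. Stromal genes differed too, with 7 of 14 markers lower in KO macrophages (6.13% of all genes) and 9 of 14 lower in KO TAMs (7.19% of all genes). Their summed intensity on the WT arrays was 3420 to 3960 without and 5210 to 12200 with co-culture, and on the KO arrays 667 to 685 without and 1010 to 3150 with it. The part of the stromal signal in the results below was not tested. Of other cell types, 0 of 10 neutrophil markers, 2 of 10 T and NK cell markers and 3 of 8 dendritic cell markers had a mean above the median over all genes, with summed intensities of 160 to 202, 226 to 1130 and 2250 to 4260 over the 12 arrays. KO TAM 1 lay more than 1 from both other KO TAM arrays in 393 genes, and WT TAM 2 from both other WT TAM arrays in 307, against 0 to 91 genes on each of the other 10 arrays. In bulk samples, fewer cells of a type and less RNA per cell cannot be told apart.

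Sialic acid is activated in the nucleus by CMP-sialic acid synthetase (Cmas) and can then be hydroxylated by Cmah, which turns N-acetylneuraminic acid into N-glycolylneuraminic acid, a form that mice make and humans do not. Sialyltransferases of the Golgi move the activated sugar onto glycans. St3gal4 and St3gal6 add it to the third carbon of galactose and St6gal1 to the sixth carbon, while the St8sia enzymes add it to another sialic acid. Siglecs are lectins that bind these caps. Siglec1 (sialoadhesin, CD169) is an adhesion receptor of macrophages with no inhibitory motif, whereas Siglece and Cd22 carry inhibitory motifs that recruit phosphatases such as the one encoded by Ptpn6.

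Cmah and St3gal6 fell in TAMs of both genotypes, St6gal1 rose in both, and Siglec1 rose in KO TAMs and was lower in KO than in WT macrophages. The sialyltransferase St8sia6 fell in TAMs of both genotypes and was the 1 gene of the 10 for which the test between these co-culture differences passed. Siglece fell in WT TAMs and ran from 5.58 to 8.10 among them and from 5.61 to 10.28 among KO TAMs. Of 21 alternative settings, 11 lost the St6gal1 call in each genotype. In WT cells the Siglece fall was lost under 6 and the St8sia6 fall under 5, and in KO cells the St3gal6 fall under 1. The co-culture comparisons and the genotype comparisons use the same 4 groups, so their values are not independent of each other.

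**Figure D1:**
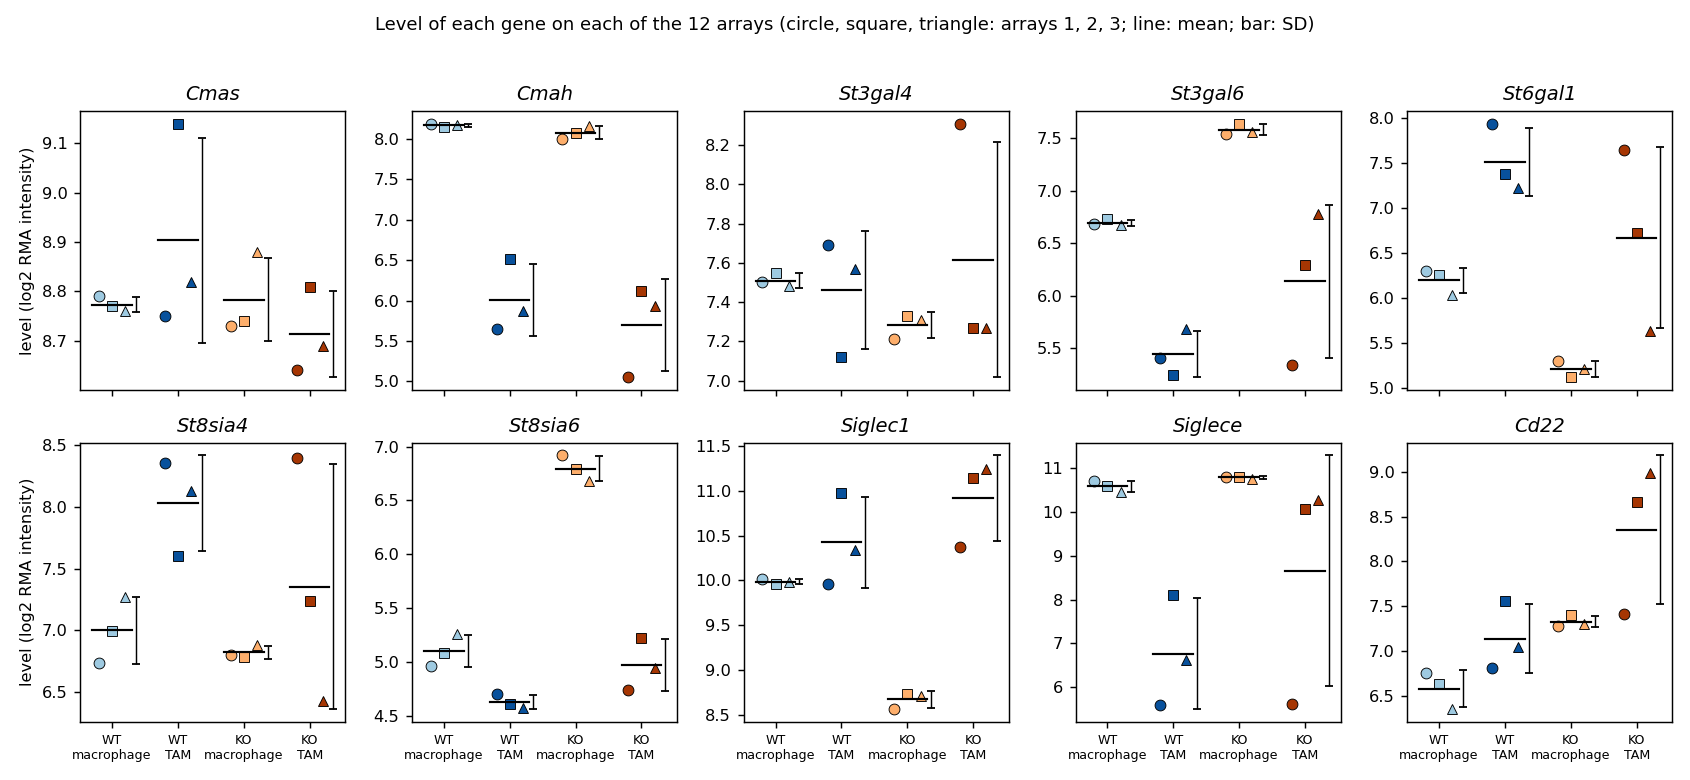
Level of each of the 10 genes on every array, as log2 RMA intensity, by group. Circles, squares and triangles are arrays 1, 2 and 3, the line is the group mean and the bar the SD over 3 arrays. Cmah sits at 8.0 to 8.19 on the 6 macrophage arrays and at 5.05 to 6.51 on the 6 TAM arrays, while Siglece runs from 5.61 to 10.28 among the 3 KO TAM arrays. Each panel has its own vertical axis, which does not start at 0.

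The promoters of 5 members are shown for the genes on which the results turn, each as the 250 bases before an annotated start of transcription in RefSeq (GRCm38.p6). RefSeq start sites were at hand for 9 of the 10 genes, Siglec1 being the tenth, with 13 starts in all. The array does not tell apart the starts of Cmah (2), St3gal6 (2) and St6gal1 (3). Capitals mark matches, on either strand, to 8 short motifs, which are the interferon response element core (GAAA, any 2 bases, then GAAA), the interferon-gamma activated site (TTCNNNGAA), the PU.1 type of ETS site (GAGGAAG), the AP-1 site (TGANTCA), the C/EBP core (TTGCNNAA), an E-box (CACGTG), the TATA box (TATAAA) and the GC box (GGGCGG). Cmah, first of its starts, is at chr13:24327154-24327403 (plus strand), St8sia6 at chr2:13793521-13793770 (minus strand), St6gal1, its most downstream start, at chr16:23290220-23290469 (plus strand), Siglece at chr7:43660162-43660411 (minus strand) and Cd22 at chr7:30879029-30879278 (minus strand).
Cmah: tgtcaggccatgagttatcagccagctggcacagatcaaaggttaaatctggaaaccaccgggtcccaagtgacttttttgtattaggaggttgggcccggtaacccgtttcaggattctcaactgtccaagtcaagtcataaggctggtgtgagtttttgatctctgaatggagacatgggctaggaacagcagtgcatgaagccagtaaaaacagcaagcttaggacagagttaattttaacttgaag
St8sia6: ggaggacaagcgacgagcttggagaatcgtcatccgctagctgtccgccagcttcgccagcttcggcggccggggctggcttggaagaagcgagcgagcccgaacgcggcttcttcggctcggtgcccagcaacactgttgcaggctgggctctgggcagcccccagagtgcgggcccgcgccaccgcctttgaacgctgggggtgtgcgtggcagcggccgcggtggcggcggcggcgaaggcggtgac
St6gal1: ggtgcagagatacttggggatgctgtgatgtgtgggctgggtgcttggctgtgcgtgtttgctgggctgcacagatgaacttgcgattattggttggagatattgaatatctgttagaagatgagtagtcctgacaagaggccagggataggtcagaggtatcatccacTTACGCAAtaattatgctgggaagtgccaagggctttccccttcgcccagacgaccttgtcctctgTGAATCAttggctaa
Siglece: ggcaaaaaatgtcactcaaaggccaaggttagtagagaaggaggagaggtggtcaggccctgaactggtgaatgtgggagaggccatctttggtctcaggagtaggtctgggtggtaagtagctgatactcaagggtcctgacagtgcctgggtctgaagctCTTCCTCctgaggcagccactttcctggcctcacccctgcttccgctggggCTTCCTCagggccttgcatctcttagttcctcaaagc
Cd22: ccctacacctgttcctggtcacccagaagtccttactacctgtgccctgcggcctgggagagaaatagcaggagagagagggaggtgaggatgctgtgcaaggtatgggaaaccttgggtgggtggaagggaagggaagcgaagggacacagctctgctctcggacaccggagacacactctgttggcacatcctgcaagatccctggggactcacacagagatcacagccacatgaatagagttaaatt

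The Siglece window held GAGGAAG on the strand opposite to the gene (printed as CTTCCTC) at -88 to -82 and -37 to -31 from the start, a motif found in 10.6% of the 32851 RefSeq promoter windows of this length. The St6gal1 window shown, which has the most matches of its 3 starts, held a C/EBP match at -81 to -74 (9.6% of windows) and an AP-1 match at -15 to -9 (6.7%). Of its other windows, the first start had no match and the next a C/EBP match at -13 to -6. The windows of Cmah, St8sia6 and Cd22 held none of the 8 motifs, and that of Cd22 thus had no interferon response element core, which 3.0% of windows have. The St8sia6 window was 70.8% G and C with 30 CpG dinucleotides, against 45.6% and 3 for Cmah, 55.2% and 1 for Siglece, 55.2% and 4 for Cd22 and a median of 52.4% and 6 over all windows. These matches describe letters in a window and say nothing of whether a factor binds there.

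Cmas varied little among the 12 arrays. It read 8.79, 8.77 and 8.76 on WT macrophages 1, 2 and 3, 8.75, 9.14 and 8.82 on WT TAMs, 8.73, 8.74 and 8.88 on KO macrophages and 8.64, 8.81 and 8.69 on KO TAMs. The groups overlapped in each of the 4 comparisons, and no pairwise difference passed the test, the largest in size being -0.19 ± 0.10 between KO and WT TAMs (adjusted p = 0.291).

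Cmah was lower on every TAM array than on every macrophage array. It read 8.19, 8.15 and 8.17 on WT macrophages, and 5.65, 6.51 and 5.87 on WT TAMs. It read 8.0, 8.07 and 8.16 on KO macrophages, and 5.05, 6.12 and 5.93 on KO TAMs. The fall was 4.47-fold in WT cells (-2.16 ± 0.25, adjusted p = 0.000303) and 5.2-fold in KO cells (-2.38 ± 0.25, adjusted p = 0.000332). Both calls held under each of the 21 alternative settings, with adjusted p up to 0.00237 and 0.00766. Genotype went with no detectable difference in macrophages (-0.09 ± 0.25, adjusted p = 0.869) or in TAMs (-0.31 ± 0.25, adjusted p = 0.5), and the co-culture differences of the genotypes differed by -0.22 ± 0.36 (adjusted p = 0.895).

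St3gal6 fell with co-culture in both genotypes. It read 6.68, 6.73 and 6.67 on WT macrophages and 5.41, 5.24 and 5.68 on WT TAMs. On KO macrophages it read 7.54, 7.64 and 7.56, and on KO TAMs 5.34, 6.29 and 6.78. The fall was -1.25 ± 0.26 in WT cells (2.38-fold, adjusted p = 0.00945) and -1.44 ± 0.26 in KO cells (2.72-fold, adjusted p = 0.00805). With the spread taken from the 6 KO arrays alone, the adjusted p in KO cells was 0.0677, the highest over its alternatives, whose lowest was 0.000334. KO TAM 1 was the low array of its group and lay within the range of the WT TAMs. KO macrophages lay above WT macrophages without overlap by 0.88 ± 0.26, a difference that did not pass (adjusted p = 0.0516) and passed under 8 of the 21 alternatives.

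St3gal4, which makes the same linkage as St3gal6, had no difference that passed. It read 7.50, 7.55 and 7.48 on WT macrophages, 7.69, 7.12 and 7.57 on WT TAMs, 7.21, 7.33 and 7.31 on KO macrophages and 8.31, 7.27 and 7.27 on KO TAMs. KO TAM 1 was the high array, and its co-culture difference in KO cells was 0.33 ± 0.23 with that array and -0.01 without it. The difference between KO and WT TAMs changed sign in the same way, from 0.16 to -0.19 without KO TAM 1.

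St6gal1, which makes the sialylated structures that Cd22 binds, was higher in TAMs. It read 6.30, 6.26 and 6.04 on WT macrophages and 7.94, 7.38 and 7.22 on WT TAMs. On KO macrophages it read 5.30, 5.12 and 5.21, and on KO TAMs 7.65, 6.73 and 5.64. Its groups did not overlap within either genotype. The rise was 2.49-fold in WT cells (1.32 ± 0.37, adjusted p = 0.0391) and 2.76-fold in KO cells (1.46 ± 0.37, adjusted p = 0.036). Each of these calls was lost under 11 of 21 alternatives. In WT cells it was lost when any single array other than KO TAM 1 or KO TAM 3 was left out (adjusted p up to 0.138, without WT TAM 1). In KO cells it was lost without any 1 of the 6 macrophage arrays, KO TAM 1 or KO TAM 2 (adjusted p up to 0.114, without KO macrophage 2) and with the spread of the KO arrays alone (adjusted p = 0.136). Without KO TAM 1 the difference in KO cells was 0.98 (adjusted p = 0.0716). The 3 KO macrophage arrays lay below all WT macrophage arrays by 0.99 on average, which did not pass (adjusted p = 0.113) and passed under 5 of the 21 alternatives (0.000455 to 0.252).

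St8sia4, a polysialyltransferase, read 6.73, 6.99 and 7.27 on WT macrophages, 8.36, 7.60 and 8.13 on WT TAMs, 6.80, 6.78 and 6.88 on KO macrophages and 8.40, 7.24 and 6.42 on KO TAMs. WT TAMs lay above WT macrophages without overlap, by 1.04 ± 0.38, which did not pass (adjusted p = 0.107) and passed under 5 of the 21 alternatives (0.00315 to 0.286). In KO cells the difference was 0.54 ± 0.38 (adjusted p = 0.488) and 0.01 without KO TAM 1, and KO TAM 3 lay below every macrophage array. Of the 4 proteins listed as carriers of polysialic acid, Ncam1 was the one with a call, lower in KO than in WT TAMs by -2.04 ± 0.42 (adjusted p = 0.00838, and 0.088 with the spread of the TAM arrays alone). Over all genes, 7.19% were lower in KO than in WT TAMs. Ncam1 is also a gene of stromal cells, whose markers differ in that comparison.

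St8sia6, which adds sialic acid to sialylated O-glycans and makes ligands of Siglec-E, was high on KO macrophages alone. It read 4.96, 5.08 and 5.26 on WT macrophages, 4.70, 4.61 and 4.57 on WT TAMs, 6.92, 6.79 and 6.68 on KO macrophages and 4.74, 5.22 and 4.94 on KO TAMs. KO macrophages exceeded WT macrophages 3.25-fold (1.70 ± 0.13, adjusted p = 2.6e-05). The gene fell 3.56-fold in KO TAMs (-1.83 ± 0.13, adjusted p = 1.42e-05) and 1.39-fold in WT TAMs (-0.47 ± 0.13, adjusted p = 0.0304). The difference between these falls was -1.36 ± 0.18 (adjusted p = 0.00969, up to 0.0454 over the 21 alternatives, under all of which it passed). The small fall in WT cells was lost without WT macrophage 2 or 3 or any of the WT TAM arrays (adjusted p 0.0568 to 0.129). On the WT arrays and the KO TAM arrays St8sia6 lay below the 5.34 that was the median over all genes.

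**Figure D2:**
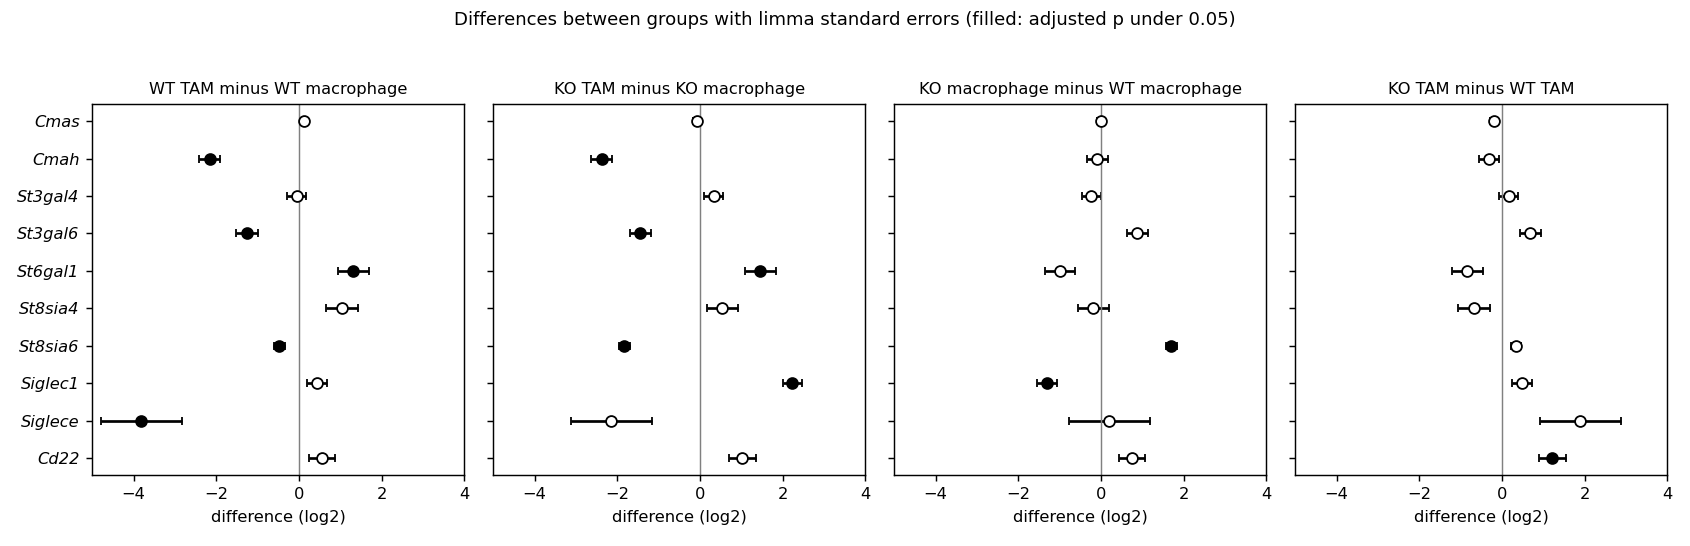
Difference of each of the 10 genes in the 4 pairwise comparisons, on the log2 scale, with the standard error of the limma fit as bars and filled points where the adjusted p was under 0.05. Cmah, St3gal6 and St8sia6 lie left of 0 in both co-culture panels and St6gal1 right of 0, while St8sia6 (1.70) and Siglec1 (-1.31) are the filled points of the macrophage genotype panel.

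Siglec1 was lowest on KO macrophages and highest on KO TAMs. It read 10.02, 9.96 and 9.98 on WT macrophages and 9.96, 10.97 and 10.34 on WT TAMs. It read 8.57, 8.74 and 8.72 on KO macrophages and 10.37, 11.14 and 11.24 on KO TAMs. In macrophages the KO level was 2.48-fold lower (-1.31 ± 0.24, adjusted p = 0.00538). In KO cells it rose 4.72-fold with co-culture (2.24 ± 0.24, adjusted p = 0.000399), and both calls held under all 21 alternatives. In WT cells the difference was 0.44 ± 0.24 (adjusted p = 0.319) and the groups overlapped. The co-culture differences of the genotypes differed by 1.80 ± 0.35, which did not pass (adjusted p = 0.0747). That value was 2.08 without KO TAM 1 (adjusted p = 0.00502), in a range of 4.54e-05 to 0.207 over the alternatives.

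Siglece, an inhibitory receptor of mouse myeloid cells, had the widest range of the 10 genes. It read 10.72, 10.59 and 10.46 on WT macrophages and 10.81, 10.80 and 10.76 on KO macrophages. It read 5.58, 8.10 and 6.61 on WT TAMs and 5.61, 10.08 and 10.28 on KO TAMs. Every TAM array lay below every macrophage array of its genotype. WT TAMs fell 14.2-fold on average (-3.82 ± 0.98, adjusted p = 0.0257). The difference was -4.49 without WT TAM 2 and -3.23 without WT TAM 1. The call was lost without any of WT macrophage 1, 2 and 3, WT TAM 1 or WT TAM 3 (adjusted p 0.0719 to 0.1). KO TAMs differed by -2.14 ± 0.98, which did not pass (adjusted p = 0.251), and by -0.61 without KO TAM 1 (adjusted p = 0.602, in a range of 0.112 to 0.602). KO TAM 2 and 3 stood above all WT TAM arrays and KO TAM 1 stood with WT TAM 1. Without KO TAM 1 the co-culture differences of the genotypes differed by 3.21 (adjusted p = 0.0392) against 1.69 ± 1.39 with it (adjusted p = 0.757), and the alternatives ranged from 0.000194 to 0.909.

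Cd22, best known as a receptor of B cells, was highest on KO TAM 2 and 3. It read 6.75, 6.63 and 6.35 on WT macrophages, 6.81, 7.56 and 7.04 on WT TAMs, 7.28, 7.40 and 7.30 on KO macrophages and 7.41, 8.66 and 8.99 on KO TAMs. KO TAMs exceeded WT TAMs 2.32-fold (1.22 ± 0.32, adjusted p = 0.0286), although KO TAM 1 lay within the range of WT TAMs. The call was lost without WT TAM 1 or 3 or KO TAM 2 or 3 (adjusted p 0.0842 to 0.107) and with the spread of the TAM arrays alone (adjusted p = 0.156). The co-culture differences, 0.56 ± 0.32 in WT and 1.03 ± 0.32 in KO cells, did not pass (adjusted p = 0.331 and 0.085; the second was 1.5 without KO TAM 1, adjusted p = 0.00171, in a range of 0.000239 to 0.218), nor did the 0.75 ± 0.32 between KO and WT macrophages (adjusted p = 0.168), while in all 3 of these comparisons the groups did not overlap.

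Some B cell genes were detected beside Cd22 and others were low. The defining B cell genes Ms4a1 (3.31 to 3.60), Pax5 (4.03 to 4.48) and Cd79a (3.80 to 4.34) were low on all 12 arrays. Of the 13 B cell markers measured, 5 had a mean above the median over all genes, among them Ighm, Cd79b and Bank1. The summed intensity of the list on the WT arrays was 2890 to 3070 without and 1400 to 1640 with co-culture, and on the KO arrays 5810 to 5890 without and 1430 to 3170 with it. The sum was highest on KO macrophages, where Ighm read 11.61 to 11.68. Cd79b, a part of the B cell receptor, read 6.13, 8.30 and 8.17 on KO TAM 1, 2 and 3, and Bank1, a B cell scaffold gene, read 5.83, 8.23 and 8.20. The other 3 of the 5 were Ighm (6.57, 10.25 and 9.44 on KO TAM 1, 2 and 3), the B cell factor gene Ebf1 (5.86, 5.34 and 4.39) and the adaptor gene Blnk (10.0, 10.19 and 10.20). Ebf1 was highest of all arrays on WT TAM 2 (8.09), which had the highest stromal sum (12200). It read 4.11 to 4.98 on KO macrophages, which had the lowest (667 to 685). The part of these B cell genes in the Cd22 result was not tested. Of the plasma cell and myeloma markers, 6 of 12 had a mean above the median over all genes. Jchain read 3.28 to 3.84, Tnfrsf17 3.35 to 4.09 and Pou2af1 4.17 to 4.66 over the 12 arrays. The summed intensity of the list was 5640 to 5870 on WT macrophages and 5910 to 6130 on WT TAMs. It was 6230 to 6350 on KO macrophages and 6850 to 7640 on KO TAMs. Slamf7, the marker with the highest mean of the 12, read 11.78 to 12.56 and weighs most in these sums. They are thus not read as a level of myeloma RNA.

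Siglec1 and Cd22 were highest on KO TAM 2 and 3, the arrays with the highest mean of interferon-stimulated genes. Siglec1 is itself known as an interferon-induced gene. The mean level of 17 type I interferon genes was 8.43, 9.78 and 10.09 on KO TAM 1, 2 and 3 and 8.14, 9.14 and 8.83 on WT TAM 1, 2 and 3. It was 8.69 to 8.77 on WT macrophages, where Siglec1 read 9.96 to 10.02, and 8.83 to 8.89 on KO macrophages, where Siglec1 read 8.57 to 8.74. On KO TAM 1, with an interferon mean of 8.43, Siglec1 read 10.37, against 8.57 to 10.02 over the macrophage arrays. Of the 17 genes, 1 (Oasl2) was called in KO TAMs against KO macrophages (6.53% of all genes) and 1 (Oas2) in KO against WT TAMs (12.2% of all genes). Their summed intensity was 9270 to 25900 in KO TAMs and 7650 to 13700 in WT TAMs. The part of the interferon genes in the Siglec results was not tested.

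**Figure D3:**
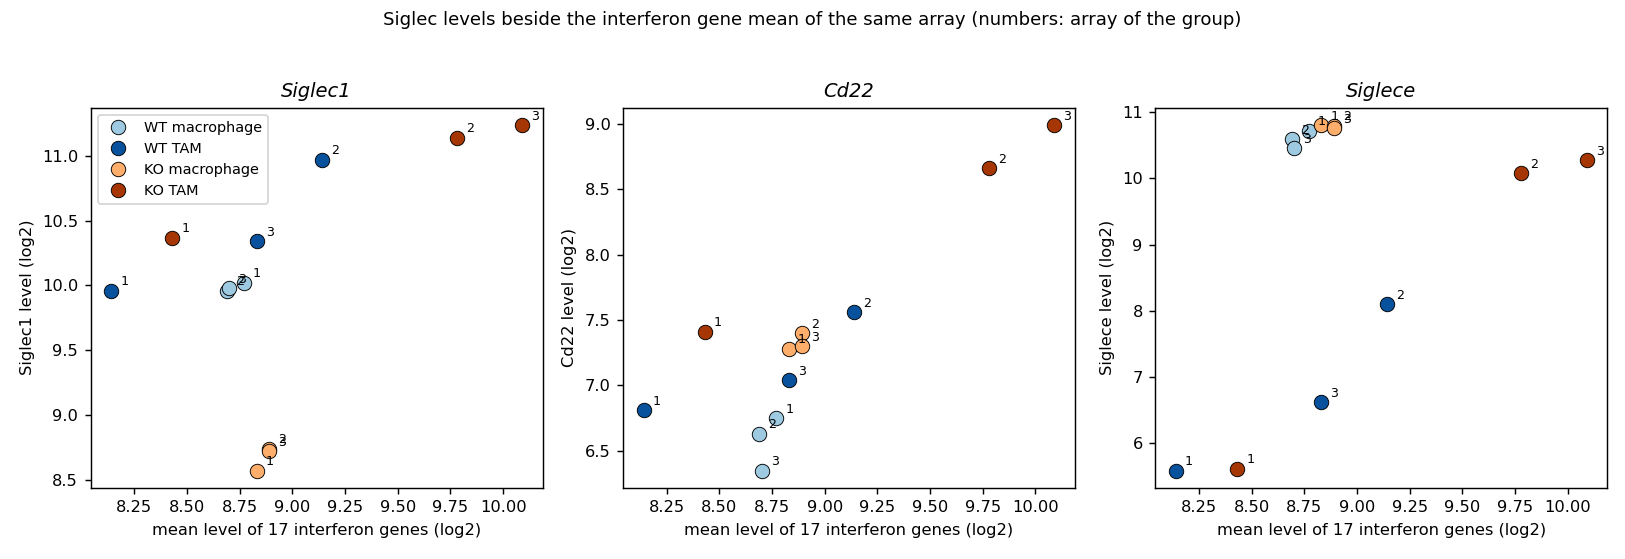
Level of Siglec1, Cd22 and Siglece on each array against the mean level of 17 type I interferon genes on the same array, both on the log2 scale, with colours for the groups and numbers for the arrays. KO TAM 2 and 3 (interferon means 9.78 and 10.09) hold the highest Siglec1 and Cd22, and KO macrophages (8.83 to 8.89) hold Siglec1 at 8.57 to 8.74.

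In WT cells, 5 of the 10 members were called between TAMs and macrophages, 1 higher and 4 lower, where 11.5% of all genes were called (5.89% higher and 5.66% lower). The groups did not overlap for 7 of the 10 (30.1% of all genes). In KO cells, 5 were called, 2 higher and 3 lower (6.53% of all genes, 2.90% higher and 3.63% lower), and 7 did not overlap (26.3% of all genes). In macrophages 2 were called between the genotypes, 1 higher and 1 lower in KO (11.3% of all genes, 5.19% higher and 6.13% lower), and 7 did not overlap (38.5%). In TAMs 1 was called between the genotypes, higher in KO (12.2% of all genes, 5.03% higher and 7.19% lower), and 1, St8sia6, did not overlap (24.6%). The interaction was called for 1 of the 10, with a difference below 0, against 0.194% of all genes (0.0902% below 0). The median size of the difference over the 10 genes was 0.80, 1.45, 0.49 and 0.59 in these 4 pairwise comparisons, against 0.14, 0.13, 0.15 and 0.14 over all genes. Since these genes were listed with such results known, nothing is read from the shares.

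Among single arrays left out, KO TAM 1 moved the count between the TAM genotypes most. Without it 7 of the 10 genes were called between KO and WT TAMs, 5 higher and 2 lower, against 1 with it. Siglece was then higher by 3.41 (adjusted p = 0.00086), St3gal6 by 1.09 (adjusted p = 0.000523) and Siglec1 by 0.77 (adjusted p = 0.0326), while St6gal1 was at -1.33 (adjusted p = 0.00705) and St8sia4 at -1.20 (adjusted p = 0.00805). St8sia6 was then at 0.45 (adjusted p = 0.0255) and Cd22 at 1.69 (adjusted p = 0.000221). Without WT TAM 1, WT TAM 3, KO TAM 2 or KO TAM 3, 0 of the 10 were called, and without WT TAM 2, 2 were. Over all alternatives these adjusted p-values ranged up to 0.592 (Siglece), 0.365 (St3gal6), 0.592 (Siglec1), 0.506 (St6gal1), 0.754 (St8sia4), 0.341 (St8sia6) and 0.156 (Cd22). On KO TAM 1 St8sia4, St3gal4, Siglece and Cd22 each lay more than 1 from both other arrays of the group. WT TAM 1 and KO TAM 1 were each the lowest of their group for Siglece (5.58 and 5.61), Siglec1 (9.96 and 10.37) and Cd22 (6.81 and 7.41). The same held for Cmah (5.65 and 5.05) and Cmas (8.75 and 8.64). Each was the highest for St6gal1 (7.94 and 7.65), St8sia4 (8.36 and 8.40) and St3gal4 (7.69 and 8.31), while St3gal6 and St8sia6 did not follow this. Leaving out KO TAM 1 alone thus keeps in the WT array with the same extremes for all members other than St3gal6 and St8sia6. Over the members the median SD within a group was 0.664 in KO TAMs and 0.382 in WT TAMs, against 0.072 in KO and 0.084 in WT macrophages.

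The rest of the pathway was taken from lists written from general knowledge, 67 measured genes beside the 10. These lists too were chosen with earlier results of these data known, so the counts over them are a description. In WT TAMs 15 of the 67 rose and 9 fell (11.5% of all genes called), and in KO TAMs 3 rose and 5 fell (6.53% of all genes). Between genotypes 4 were higher and 1 lower in KO macrophages (11.3% of all genes), and 2 were higher and 5 lower in KO TAMs (12.2% of all genes). The 1 lower in KO macrophages and 1 of the 5 lower in KO TAMs is Nans, whose probe sets disagree. By limma 0 of the 67 passed for the interaction, where 15 had an unadjusted p under 0.05, against 43 and 2130 of the 22180 genes. The median difference of the 67 was 0.05 in WT and 0.01 in KO co-culture, against 0.01 and -0.01 over all genes.

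Of 9 genes that remove, modify or recycle sialic acid, 4 rose in WT TAMs, 0 fell and the other 5 did not pass, where 5.89% of all genes rose. The lysosomal sialidase Neu1 rose by 0.76 ± 0.08 (adjusted p = 0.000221), from 7.96 to 8.08 on WT macrophages to 8.70 to 8.82 on WT TAMs. Npl, the lyase that breaks down free sialic acid, rose by 1.81 ± 0.27 (adjusted p = 0.0013), from 7.11 to 7.30 up to 8.65 to 9.49. Ctsa, the protective protein that binds Neu1 in the lysosome, rose by 0.40 ± 0.08, and the sialate esterase gene Siae rose by 0.46 ± 0.11, which did not pass once WT macrophage 1, WT TAM 1 or WT TAM 3 was left out (adjusted p up to 0.0755). In KO TAMs 1 of the 9, Siae, rose, where 2.90% of all genes did. Its difference there was 0.48 (adjusted p = 0.0218), a call lost under 5 of 21 alternatives (up to 0.0835). The groups did not overlap for 5 of the 9 genes in WT cells (30.1% of all genes) and for 5 in KO cells (26.3% of all genes). Neu1 was already higher in KO than in WT macrophages (0.60 ± 0.08, adjusted p = 0.00114), at 8.60 to 8.64, and its co-culture difference in KO cells was 0.19 ± 0.08 (adjusted p = 0.237). In KO against WT macrophages Npl (0.95 ± 0.27, adjusted p = 0.0429) and Casd1, the sialic acid acetyltransferase gene (0.30 ± 0.08, adjusted p = 0.0356), were higher too, calls that were lost without any 1 of the 6 macrophage arrays (adjusted p up to 0.123 and 0.12). The interaction of Neu1 was -0.57 ± 0.12 and did not pass (adjusted p = 0.0888).

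Of 6 other genes of sialic acid synthesis and activation, 1 was called in each co-culture comparison (11.5% of all genes in WT and 6.53% in KO cells). Renbp, a binding protein of renin that also acts on the sialic acid precursor N-acetylglucosamine, rose in WT TAMs by 0.73 ± 0.10 (adjusted p = 0.000681). It rose in KO TAMs by 0.37 ± 0.10 (adjusted p = 0.0418), a call lost under 12 of 21 alternatives (adjusted p up to 0.138). Gne, the rate-limiting enzyme, read 6.40 to 6.76 over the 12 arrays, and the Golgi transporter gene Slc35a1 read 6.93 to 7.56. Nans, the sialic acid synthase, was lower in KO than in WT macrophages by -0.46 ± 0.09 and in KO than in WT TAMs by -0.55 ± 0.09, but its other probe set went the opposite way. That probe set read 6.47 in WT and 6.92 in KO macrophages, and 6.47 in WT and 7.24 in KO TAMs, so no direction is given for the gene.

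Among the 15 other sialyltransferases, St6galnac4 (0.61 ± 0.10, adjusted p = 0.00201) and St6galnac6 (0.60 ± 0.14, adjusted p = 0.0172) rose and St3gal1 fell (-0.72 ± 0.18, adjusted p = 0.0215) in WT TAMs. Over all genes, 5.89% rose and 5.66% fell there. The call of St6galnac6 was lost without WT macrophage 1, WT macrophage 2 or WT TAM 1 (adjusted p up to 0.079), and that of St3gal1 without any 1 of the WT macrophage arrays (adjusted p up to 0.0732). St3gal5, the synthase of the ganglioside GM3, was lower in KO than in WT TAMs (-1.35 ± 0.27, adjusted p = 0.00671, and 0.085 with the spread of those arrays alone), at 7.32, 8.63 and 8.19 against 9.02, 9.80 and 9.37. In KO TAMs against KO macrophages 2 of the 15 fell, where 3.63% of all genes did. One was St3gal3 (-0.43 ± 0.10, adjusted p = 0.025), whose call was lost with the compared groups alone and without KO macrophage 2 or 3 or KO TAM 2 or 3 (up to 0.108). The other was St3gal5 (-1.09 ± 0.27, adjusted p = 0.0326), a call lost without any 1 of the 6 macrophage arrays or KO TAM 1 (-0.72 without the last, adjusted p = 0.055, and up to 0.111 over the alternatives).

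The other 6 Siglecs measured went both ways. Siglecf, a receptor of eosinophils and alveolar macrophages, fell in WT TAMs (-1.13 ± 0.16, adjusted p = 0.000908) and in KO TAMs (-0.79 ± 0.16, adjusted p = 0.0133, and up to 0.0599 without KO macrophage 2 or 3). Mag, a Siglec of myelinating glia, read 4.19 to 5.95, near the median over all genes, and fell in WT TAMs (-1.22 ± 0.21, adjusted p = 0.00328). Cd33 read 8.90, 9.43 and 8.99 on WT macrophages, 10.43, 11.39 and 10.88 on WT TAMs, 11.15, 11.16 and 11.17 on KO macrophages and 9.03, 11.13 and 11.38 on KO TAMs. It rose in WT TAMs (1.79 ± 0.47, adjusted p = 0.03) and was higher in KO macrophages (2.05 ± 0.47, adjusted p = 0.0165). The first call was lost without any 1 of the WT macrophage arrays, WT TAM 2 or WT TAM 3 (adjusted p up to 0.106), and the second without WT macrophage 1 or 3 or any 1 of the KO macrophage arrays (adjusted p up to 0.0662). As with Siglece, KO TAM 1 was the low KO TAM array for Cd33.

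Of the genes that signal below Siglecs, Ptpn6, which encodes the phosphatase SHP-1, fell in WT TAMs by 0.88 on the log2 scale (SE 0.14, adjusted p = 0.00172), from 12.08 to 12.09 down to 10.91 to 11.41. Syk, a kinase used by activating Siglecs through Tyrobp, fell in WT TAMs (-0.43 ± 0.11, adjusted p = 0.0212, and up to 0.0804 over the alternatives, the call being lost without any 1 of the WT macrophage arrays, WT TAM 1 or WT TAM 3). It was higher in KO than in WT TAMs (0.50 ± 0.11, adjusted p = 0.00985, and 0.0992 with the spread of those arrays alone). Ptpn11, which encodes the phosphatase SHP-2, fell in KO TAMs (-0.26 ± 0.07, adjusted p = 0.049), a call lost under 14 of 21 alternatives (up to 0.138). Tyrobp itself stayed within 10.96 to 11.25 on all arrays.

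Of 16 genes listed for N-glycan branching and for galactosylation, 6 rose and 2 fell in WT TAMs, where 5.89% of all genes rose and 5.66% fell. The list is wider than the enzymes that build N-glycan antennae. Mgat5, which starts an antenna, rose by 0.99 ± 0.14 (adjusted p = 0.000874), Mgat4b by 0.64 ± 0.12 (adjusted p = 0.00394) and the galactosyltransferase B4galt3 by 0.77 ± 0.15 (adjusted p = 0.00653). B3gnt2, which extends lactosamine chains, fell (-0.83 ± 0.16, adjusted p = 0.00573). The other calls were rises of the mannosidase genes Man2a1 (0.97) and Man2a2 (0.67) and of B4galt5 (0.53) and a fall of B4galt6 (-0.42), each lost without 1 or more single arrays (adjusted p up to 0.0819, 0.141, 0.151 and 0.0592), WT macrophage 3 among them for all 4. In KO TAMs 1 of the 16, B4galt3, rose, where 2.90% of all genes did (0.63 ± 0.15, adjusted p = 0.0285, and up to 0.11 over the alternatives, the call being lost without KO macrophage 1 or 2 or KO TAM 1 or 2). Mgat5 and Mgat4b were lower in KO than in WT TAMs (-0.58 ± 0.14 and -0.50 ± 0.12, adjusted p = 0.0182 and 0.0169), and these calls were lost with the spread of the TAM arrays alone (adjusted p = 0.133 and 0.102). The Mgat5 call was lost also without WT TAM 1 or 3 or KO TAM 2 or 3, and the Mgat4b call without WT TAM 2 or KO TAM 2.

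Of 6 genes of O-glycan and ganglioside synthesis, 1 rose and 2 fell in WT TAMs, where 5.89% of all genes rose and 5.66% fell. C1galt1, which makes the core of most O-glycans, rose (0.71 ± 0.13, adjusted p = 0.00324). Ugcg, which starts glycosphingolipid synthesis, fell (-0.54 ± 0.12, adjusted p = 0.00959), and so did the ganglioside enzyme gene B4galnt1 (-0.45 ± 0.09, adjusted p = 0.00775). In KO TAMs 1 of the 6, B4galnt1, fell, where 3.63% of all genes did. Its difference was -0.44 ± 0.09 (adjusted p = 0.0157), a call lost with the compared groups alone and without KO macrophage 2 or 3 (up to 0.0729). Ugcg was higher in KO than in WT TAMs (0.45 ± 0.12, adjusted p = 0.0258), a call lost under 6 of 21 alternatives, WT TAM 1 or 3 or KO TAM 2 or 3 left out among them (up to 0.158).

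**Figure D4:**
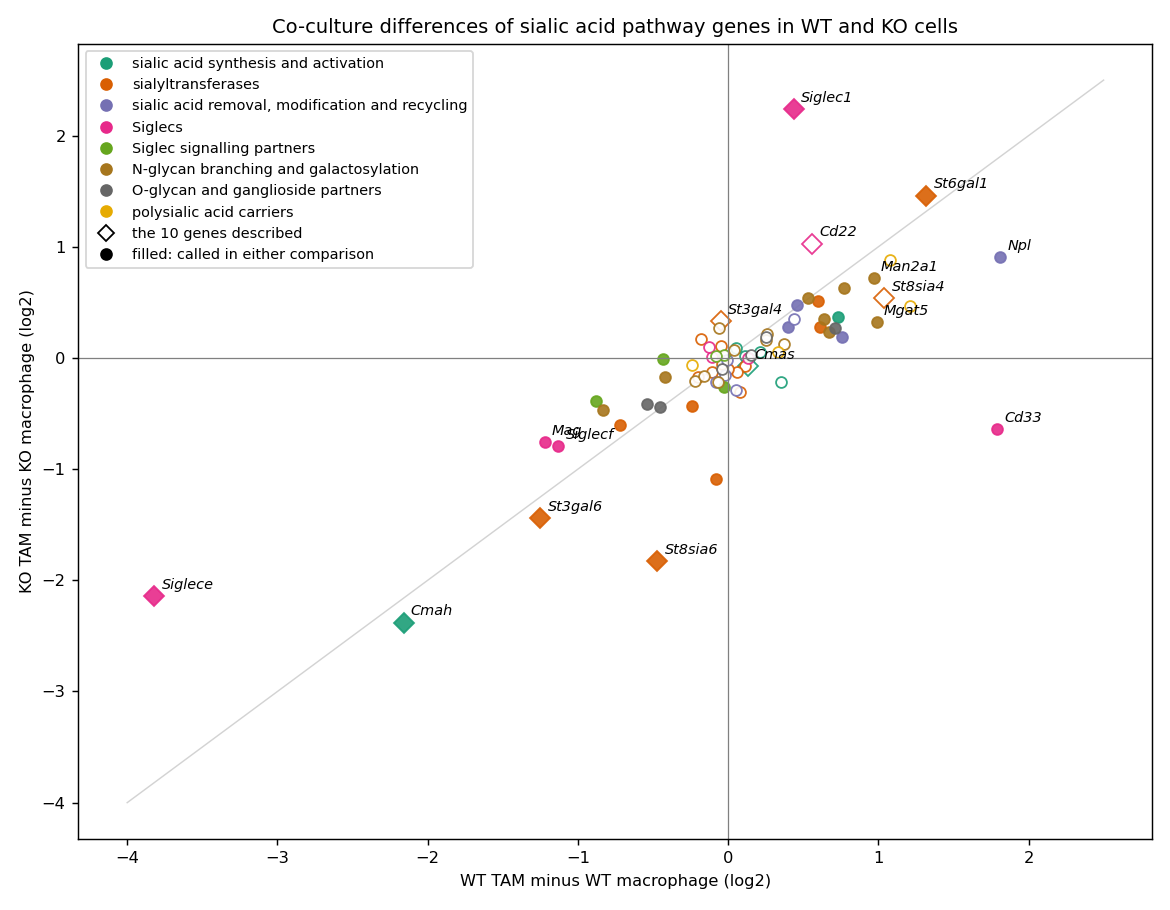
Co-culture difference in WT cells (horizontal) against that in KO cells (vertical) on the log2 scale, for the 10 genes (diamonds) and the 67 other pathway genes (circles), coloured by role and filled where called in either comparison. The grey line marks equal differences. Cmah and St3gal6 lie near it in the lower left, whereas Siglec1 (0.44 and 2.24) lies above it and St8sia6 (-0.47 and -1.83) below it.

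Genes most like each member over the 12 arrays were sought among 1374 genes with a mean above the median and an SD of at least 0.5, by Pearson's r, as a description. The arrays share their groups, so such values reflect group differences as well as single arrays. Cmah was most like Pilrb1 (r = 0.970), Herc3 (0.968) and Dok3 (0.967). St8sia6 was most like Ltb (0.968), St3gal6 like Arhgap21 (0.986), St6gal1 like Smim3 (0.981) and St8sia4 like Arhgap6 (0.962). Siglece was most like the integrin gene Itgal (0.991), Tmc3 (0.991) and Fcrl5 (0.990). Cd22 was most like Ddx60 (0.972), Gbp10 (0.971) and Ifit2 (0.955), and Siglec1 like Ifitm3 (0.956), Slfn3 (0.954) and the Fc receptor gene Fcgr1 (0.919), among which Ddx60, Gbp10, Ifit2 and Ifitm3 are known interferon-induced genes. Cmas (Sfrp1, 0.899) and St3gal4 (Serinc5, 0.894) had the weakest best matches, and the rank correlation of Cmas with Sfrp1 was 0.399, with Cmas at 9.14 on WT TAM 2 and at 8.64 to 8.88 on the other arrays.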

How the data were processed

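RNA from 12 samples was measured on 1-colour arrays. The deposited table holds intensity values on a linear scale, which the authors made with RMA (background correction, quantile normalization and probe summary) and analysed with limma, per the submitters' processing notes, with no versions. No label or header names a genome build. Of 41345 probe sets, 23521 had 1 gene symbol in the platform annotation, 1814 several and 16010 none. The log2 intensity of the probe set with the highest mean stood for each of 22180 genes, and no filter was set. Group means were fitted with limma 3.58.1 in R 4.3.3 (lmFit and eBayes, 4 groups, 8 residual degrees of freedom), after a test on simulated data, and p-values were adjusted by the Benjamini-Hochberg method over all genes. The number of arrays limits the precision. RMA removes overall shifts between arrays, so a change shared by most genes would not be seen.

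The members and lists were chosen with earlier results of these data known. All 10 members were named, and other pathway genes could be named where called in at least 1 comparison (otherwise only by level), as could the 3 genes most like each member. Same-numbered arrays of different groups had deviations correlated at -0.06 to 0.27 over 18 pairs. Of these, 2 were above 0.1, WT TAM 1 with KO TAM 1 and WT TAM 2 with KO TAM 2. The main fit did not pair the arrays. Alternatives were a repeated quantile normalization, median centring, genes above the median level, means over probe sets, the compared groups alone, array weights, a robust variance trend, a replicate block and leaving out arrays. Arrays were left out singly, or WT TAM 2 and KO TAM 1 together. Those were the arrays with the most genes away from their group (307 and 393), so that setting is not independent of the values. Promoter sequences are from RefSeq (GRCm38.p6).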

Additional observations from a re-analysis of the deposited data

Results flagged for a closer look

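The co-culture difference of St8sia6 differed between the genotypes by the test of the difference itself, at -1.36 ± 0.18 (limma, adjusted p = 0.00969 over 22180 genes, of which 43 passed). The co-culture difference was -1.83 in KO cells, where all 3 KO TAM arrays lay below all 3 KO macrophage arrays, and -0.47 in WT cells, where the arrays did not overlap either. The adjusted p of the difference ranged from 0.00288 to 0.0454 over the 21 alternatives. Since the gene was listed with this result known, the test is a description.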

How the results depend on the processing

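Of the 14 calls of members, 8 held under all 21 alternatives and 6 were lost under some. No called difference of a member changed sign. Of the 44 calls of other pathway genes, 16 held under all, 27 were lost under some and 1, Nans between KO and WT TAMs, turned to 0.11 with the mean over its disagreeing probe sets. The cause of the changes below was not tested.

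Members called between WT TAMs and WT macrophages numbered 5, against 3 with a robust variance trend and 2 to 6 with 1 array left out. Between KO TAMs and KO macrophages they numbered 5, against 3 with the compared groups alone. Between KO and WT macrophages they numbered 2, against 6 with the compared groups alone, 5 with array weights, 6 without WT TAM 2 and KO TAM 1 and 2 to 5 with 1 array left out. In KO against WT TAMs they numbered 1, against 0 with the compared groups alone, 7 with array weights, 8 without both arrays and 0 to 7 with 1 array left out. For the interaction they numbered 1, against 2 over genes above the median level, 2 with array weights, 5 without both arrays and 1 to 3 with 1 array left out. Both arrays lay furthest from their groups in these data, so leaving them out is not a neutral setting. For Siglece, WT TAM 2 was the highest WT TAM array (8.10) and KO TAM 1 the lowest KO TAM array (5.61). The Siglece difference between KO and WT TAMs was 4.08 without both, against 1.89 with them.

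Other pathway genes called in KO TAMs against KO macrophages numbered 8, against 16 over genes above the median level, 1 with the compared groups alone, 22 with array weights, 14 with a robust trend and 0 to 13 with 1 array left out. In KO against WT macrophages they numbered 5, against 9 with quantile normalization repeated, 8 over genes above the median, 15 with the compared groups alone, 12 with array weights, 14 without both arrays and 2 to 9 with 1 left out. Between KO and WT TAMs they numbered 7, against 12 over genes above the median, 1 with the compared groups alone, 21 with array weights, 19 without both arrays and 5 to 15 with 1 left out. For the interaction they numbered 0, against 1 over genes above the median, 5 with array weights, 1 with a robust trend, 12 without both arrays and 0 to 6 with 1 left out.

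Differences that were not called changed sign as follows. St3gal4 between WT TAMs and WT macrophages was 0.06 with array weights, 0.12 without both arrays and -0.16 to 0.12 with 1 array left out. In KO cells it was -0.01 without both arrays and -0.01 to 0.51 with 1 left out. In KO against WT TAMs it was -0.22 with weights, -0.36 without both (adjusted p = 0.0119, in a range of 0.0119 to 0.982) and -0.19 to 0.33 with 1 left out, and its interaction was -0.13 without both. Cmas between KO and WT macrophages was -0.02 with median centring and -0.04 to 0.03 with 1 left out. Cmah between KO and WT TAMs was 0.14 with weights, 0.26 without both and -0.52 to 0.01 with 1 left out, and its interaction 0.24, 0.35 and -0.43 to 0.10. The interaction of St3gal6 was 0.10 without both and -0.51 to 0.20 with 1 left out, and that of St6gal1 -0.41 and -0.34 to 0.66.

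With the replicate block, members called numbered 5, 5, 3, 1 and 1 in the order above, and other pathway genes 25 (WT co-culture), 10, 6, 8 and 0. An array was most like the same number of another group in 11 of 36 cases. The pairs with deviations correlated above 0.1 were both between TAM groups. They were WT TAM 1 with KO TAM 1 (0.27) and WT TAM 2 with KO TAM 2 (0.25), while WT TAM 3 with KO TAM 3 was at 0.03. Whether TAM arrays of the same number share a co-culture run is not stated in the labels and was not tested.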
